A study of Bos taurus with 31 samples.

Results

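Small leucine-rich proteoglycans (SLRPs) are secreted matrix proteins whose leucine-rich repeats bind collagen fibrils, and several of them also bind growth factors such as TGF-beta. In liver several of them are known as products of the connective tissue compartment, that is of hepatic stellate cells, portal fibroblasts and the capsule, rather than of hepatocytes. The 8 SLRP genes described here were taken by symbol from the 24616 rows of the deposited table of raw gene counts: DCN (decorin), BGN (biglycan), ASPN (asporin), ECM2 (extracellular matrix protein 2), LUM (lumican), FMOD (fibromodulin), PRELP (proline and arginine rich end leucine rich repeat protein) and OGN (osteoglycin, also called mimecan). All 8 were measured in every cow and all 8 passed the filter of 20 reads over the whole set of cows, as 15916 genes did. The 8 genes were chosen by name, with earlier results from the same libraries known. Which measured values lay behind that choice is not recorded, apart from the smooth muscle score that picked out the cow left out below. Their differences between groups therefore describe these cows and are no independent evidence of a direction.

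RNA was sequenced from liver biopsies of 31 lactating German Holstein cows taken at the end of a feeding trial, with 1 library per cow. The trial crossed feed contaminated with residues of glyphosate, a herbicide (GLY), or control feed (CON) with a high (HC) or a low (LC) concentrate feed proportion (CFP). The groups were CONHC (control feed, high concentrate, 8 cows), CONLC (control feed, low concentrate, 8 cows), GLYHC (glyphosate-contaminated feed, high concentrate, 8 cows) and GLYLC (glyphosate-contaminated feed, low concentrate, 7 cows). Cows are named below by group and animal number. A puncture biopsy holds an unknown mix of lobule, portal tract and capsule, and in bulk RNA fewer cells of a type and less RNA per cell cannot be told apart.

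Between 11675775 and 36675542 reads were counted per cow. Levels below are read counts scaled to library size after TMM normalisation (CPM), which allow a gene to be compared between cows but not with another gene, since transcript length is not taken into account. Hepatocyte genes were high in every group, with a mean albumin (ALB) level between 101868 CPM in GLYHC and 117355 CPM in CONHC. Several libraries stood apart. GLYLC 912 had the highest smooth muscle score of the 31 cows (3.87, the mean over 12 smooth muscle genes of log2 CPM centred on the median cow), followed by CONLC 103 (1.52) and CONLC 166 (1.42). The same library held 206 CPM of FABP2, an intestinal fatty acid binding protein that reached at most 0.163 CPM in any other cow, and its summed level of 10 hepatocyte genes was the lowest of the 31 cows at 65240 CPM, against 111919 CPM in the next lowest. CONLC 166 also held 990 CPM of ACTA1, the actin of skeletal muscle, and CONLC 103 had a summed collagen level of 2312 CPM over 11 genes. Skeletal muscle RNA was not particular to CONLC 166. The sum of 8 skeletal muscle genes was 3536 CPM there, 2039 CPM in GLYHC 127 and 1838 CPM in CONHC 123. Group medians of that sum ran from 33.9 CPM in CONLC to 188 CPM in GLYLC. A skeletal muscle score built in the same way was 5.65 in CONLC 166, 4.60 in CONLC 103 and 2.49 in GLYLC 912. The part of skeletal muscle in the smooth muscle scores was not tested.

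Within the family, decorin, biglycan and asporin are close relatives. Decorin and biglycan carry chondroitin or dermatan sulphate chains, while asporin carries a stretch of aspartate in place of a chain. ECM2 shares their leucine-rich repeats. Lumican, fibromodulin and PRELP form another branch, of which lumican and fibromodulin carry keratan sulphate and compete for sites on collagen, and osteoglycin belongs to a further one. In the order of genes in RefSeq (assembly ARS-UCD2.0), in which all 17 SLRP genes looked up were found by symbol, LUM lies next to DCN, ASPN lies between OMD and ECM2, OGN lies on the other side of OMD, and FMOD lies next to PRELP. BGN lies between ECMX and ATP2B3, neither of which is among the 17 genes looked up.

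DCN was lower in the HC cows than in the LC cows. Over all cows its level was 71.6 ± 12.9 CPM in the HC cows (SD, n = 16) and 101 ± 22.8 CPM in the LC cows (SD, n = 15). With treatment as a covariate the log2 fold change was -0.50 ± 0.10 (SE), a 1.42-fold lower level (edgeR quasi-likelihood test, Benjamini-Hochberg adjusted p = 0.0275). Called means here that the unadjusted p was below 0.05 and the adjusted p, taken over all genes tested, below 0.1. ASPN and ECM2 were called lower as well, at -0.48 ± 0.13 (adjusted p = 0.0819) and -0.66 ± 0.17 (adjusted p = 0.0699). These 3 of the 8 genes compare with 1.45% of all genes tested that were called in either direction (231 genes) and 0.773% that were called lower. The DCN call held in each of the 31 fits that left out 1 cow (adjusted p from 0.00728 to 0.0495). The ECM2 call held in 26 of them and the ASPN call in 18. ECM2 was not called without CONHC 133, CONLC 103, CONLC 941, GLYHC 32 or GLYHC 127 (highest adjusted p = 0.117). ASPN was not called without any of these 5 cows, nor without CONHC 170, CONLC 60, CONLC 145, CONLC 166, GLYHC 131, GLYHC 154, GLYHC 159 or GLYLC 42 (highest adjusted p = 0.126).

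The remaining SLRP genes were not called in the comparison of HC with LC over all cows. PRELP came closest, with a log2 fold change of -0.76 ± 0.22 and an adjusted p of 0.110. LUM had the widest error of the 8, at -0.85 ± 0.38 (adjusted p = 0.297), and stood at -0.49 without CONLC 103. FMOD stood at -0.40 ± 0.20 (adjusted p = 0.378), and at -0.19 without CONLC 103. OGN stood at -0.32 ± 0.27 (adjusted p = 0.655), and at -0.13 without CONLC 166. BGN stood closest to 0, at -0.10 with a 95% interval from -0.27 to 0.07 (adjusted p = 0.670). All 8 estimates were below 0, as were 54% of all genes tested, and their median was -0.49 against -0.01 over all genes.

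**Figure D1:**
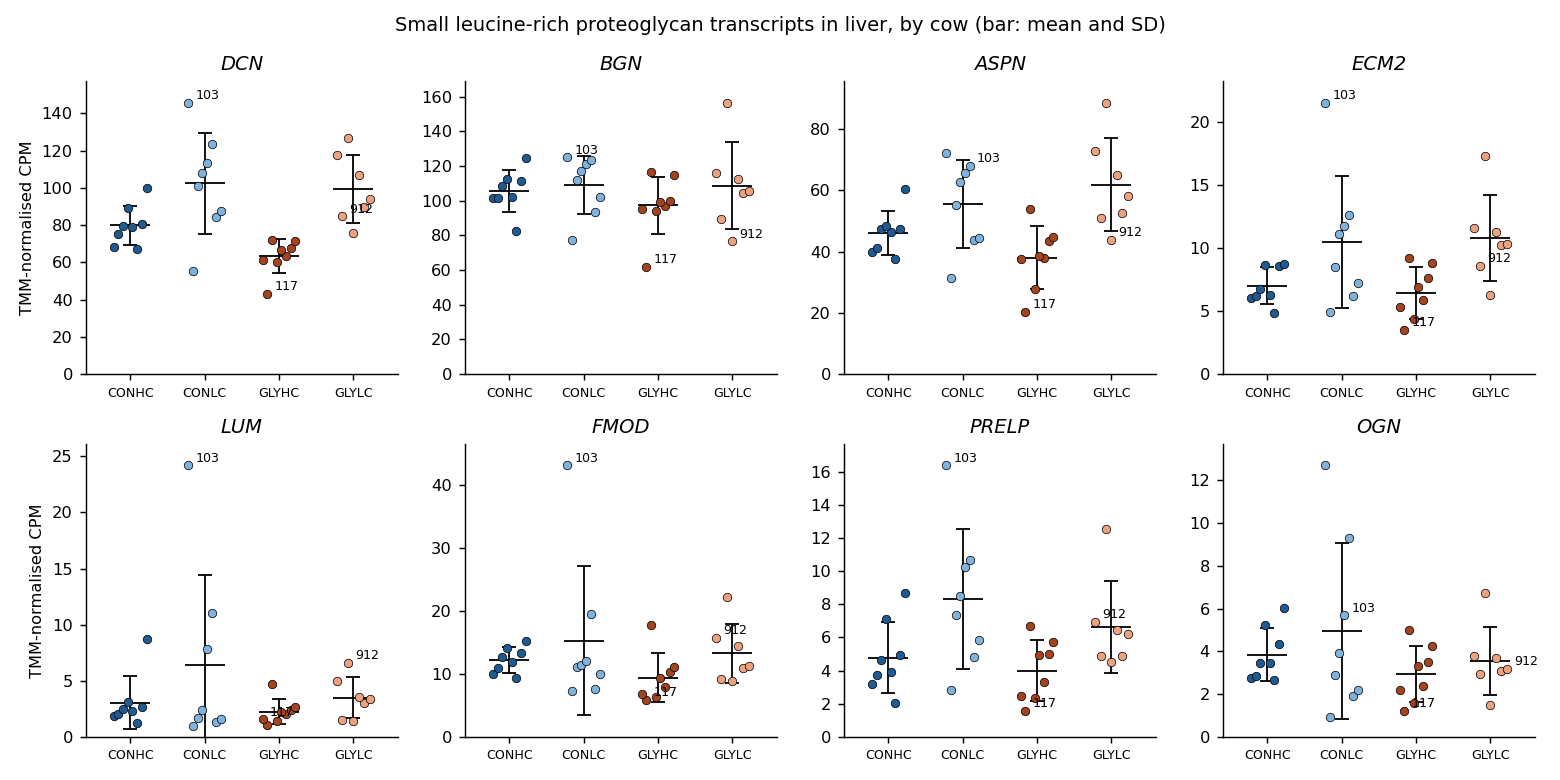
Level of each SLRP gene by cow (y axis, CPM after TMM normalisation, starting at 0) in the 4 feeding groups (x axis), with 1 point per cow and bars for the mean and SD, the lower bar of LUM in CONLC being clipped at 0. DCN did not overlap between GLYHC (43.1 to 71.8 CPM) and GLYLC (75.9 to 127 CPM), and CONLC 103, GLYLC 912 and GLYHC 117 are marked by animal number.

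In the glyphosate-exposed cows the DCN levels of the feed groups did not overlap. DCN ranged from 43.1 CPM in GLYHC 117 over a median of 65.1 to 71.8 CPM in GLYHC, and from 75.9 over a median of 94.1 to 127 CPM in GLYLC. All 8 GLYHC cows thus lay below all 7 GLYLC cows, a separation shared by 0.0942% of all genes tested (15 genes). The log2 fold change was -0.65 ± 0.14, 1.57-fold lower in GLYHC (adjusted p = 0.0848), and DCN was the only SLRP gene called in this contrast, where 0.201% of all genes were called (32 genes). The call held in 20 of the 31 fits that left out 1 cow. It was lost without GLYLC 912, without each GLYHC cow but GLYHC 37, and without CONHC 7, CONHC 170 or CONLC 60, with adjusted p from 0.0379 to 0.244 over the 31 fits. Without GLYLC 912 the log2 fold change was -0.69 with an unadjusted p of 6.29e-05 and an adjusted p of 0.244, and 0% of the 15752 genes then tested were called in this contrast.

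In the control cows the DCN levels overlapped. They ran from 67.2 over a median of 79.2 to 99.8 CPM in CONHC and from 55.6 over a median of 105 to 146 CPM in CONLC. The lowest CONLC cow, CONLC 260, lay below every CONHC cow, while 5 of 8 CONLC cows lay above the highest CONHC cow. The log2 fold change was -0.36 ± 0.14 (adjusted p = 0.741). No SLRP gene was separated between CONHC and CONLC, as 0.0188% of all genes were. Neither DCN nor any other gene was called, while 5.96% of all genes, and 3 of the 8 SLRP genes (DCN, ECM2 and PRELP), had an unadjusted p under 0.05.

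ASPN, which binds collagen and is known to restrain TGF-beta, was lower in most GLYHC cows than in any GLYLC cow. It ranged from 20.3 over a median of 38.3 to 54.1 CPM in GLYHC and from 43.9 over a median of 58.1 to 88.6 CPM in GLYLC, with 6 of 8 GLYHC cows below the lowest GLYLC cow. In the control groups it ranged from 37.6 over 46.8 to 60.5 CPM in CONHC and from 31.4 over 58.9 to 72.3 CPM in CONLC. The control ranges overlapped, with no CONHC cow below the lowest CONLC cow and 4 of 8 CONLC cows above the highest CONHC cow. The log2 fold change was -0.70 ± 0.18 in the GLY cows, where the adjusted p rounded to the threshold without passing it (0.1003), and -0.27 ± 0.17 in the CON cows (adjusted p = 0.905).

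ECM2, a matrix protein with the repeats of the family whose function is less well known, was measured with 49 to 362 reads per cow. Its level ran from 4.87 over a median of 6.54 to 8.71 CPM in CONHC and from 4.92 over 9.81 to 21.5 CPM in CONLC. In the exposed cows it ran from 3.50 over 6.37 to 9.21 CPM in GLYHC and from 6.24 over 10.3 to 17.3 CPM in GLYLC. All CONHC and all GLYHC cows lay below the median of the LC group fed the same treatment, although the ranges overlapped. The log2 fold changes were -0.58 ± 0.24 in the CON cows (adjusted p = 0.763) and -0.75 ± 0.24 in the GLY cows (adjusted p = 0.210).

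BGN, the closest relative of DCN, did not follow the same pattern in its ranges. It ran from 82.3 over a median of 105 to 125 CPM in CONHC and from 77.4 over 115 to 125 CPM in CONLC. The exposed cows ranged from 61.9 over 98.1 to 116 CPM in GLYHC and from 76.6 over 105 to 156 CPM in GLYLC. The ranges overlapped in both treatments. The log2 fold change was -0.05 in the CON cows, with a 95% interval from -0.29 to 0.20, and -0.16 in the GLY cows, with an interval from -0.41 to 0.09.

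The balance of DCN and BGN within a cow, a comparison chosen after the values had been seen and so given with no test, differed between the feed groups. The log2 ratio of DCN to BGN reads was -0.40 ± 0.11 in CONHC (SD, n = 8) and -0.12 ± 0.27 in CONLC (SD, n = 8). In the exposed cows it was -0.61 ± 0.12 in GLYHC (SD, n = 8) and -0.12 ± 0.22 in GLYLC (SD, n = 7). Of the 8 GLYHC cows, 7 lay below the lowest GLYLC cow, while 1 of 8 CONHC cows lay below the lowest CONLC cow. The difference of HC from LC stayed between -0.34 and -0.23 in the CON cows and between -0.55 and -0.45 in the GLY cows when each cow was left out in turn, the value nearest 0 being the one without CONLC 103 and without GLYLC 912, respectively.

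**Figure D2:**
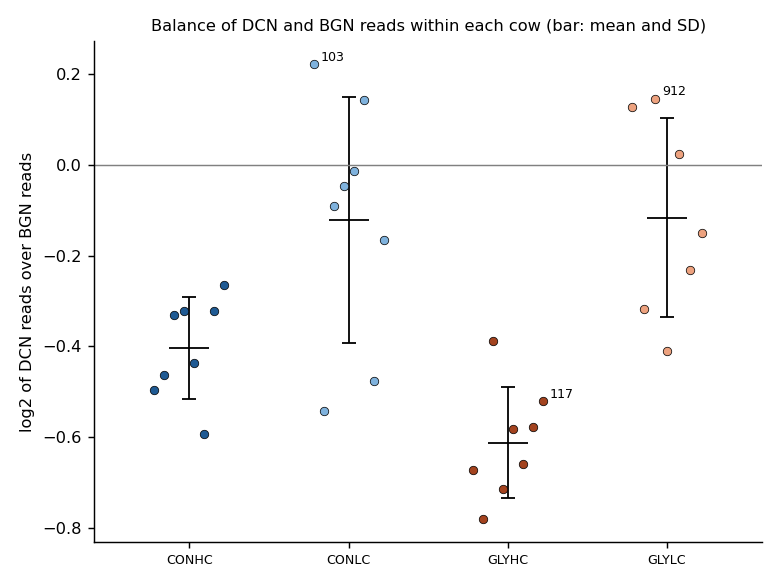
Log2 ratio of DCN to BGN reads within each cow (y axis) by feeding group (x axis), with 1 point per cow and bars for the mean and SD. GLYHC cows lie between -0.78 and -0.39 and GLYLC cows between -0.41 and 0.15, and CONLC 103, GLYLC 912 and GLYHC 117 are marked by animal number.

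LUM, which regulates the width and spacing of collagen fibrils, rested on the fewest reads, from 12 to 400 per cow, and varied most between cows. Its level ran from 1.23 over a median of 2.37 to 8.70 CPM in CONHC and from 0.945 over 2.04 to 24.2 CPM in CONLC. In the exposed cows it ran from 1.01 over 2.11 to 4.73 CPM in GLYHC and from 1.40 over 3.41 to 6.57 CPM in GLYLC. Across the 31 cows the highest level was 25.6 times the lowest, against 2.53 times for BGN and 3.38 times for DCN. The median of CONLC lay below that of CONHC although its mean was higher, with 24.2 CPM in CONLC 103, 11.1 CPM in CONLC 941 and 7.82 CPM in CONLC 166. Without CONLC 103 the log2 fold change between CONHC and CONLC was -0.35 in place of -1.06.

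FMOD, a lumican relative that takes part in the cross-linking of collagen, showed the same dependence on CONLC 103. It ran from 9.35 over a median of 12.3 to 15.2 CPM in CONHC and from 7.32 over 11.3 to 43.1 CPM in CONLC. Without CONLC 103 the estimate turned from -0.32 to 0.11 (unadjusted p = 0.636). In the exposed cows the ranges were 5.86 over 8.59 to 17.7 CPM in GLYHC and 8.89 over 11.2 to 22.2 CPM in GLYLC, with a log2 fold change of -0.49 ± 0.29 (adjusted p = 0.514). The feed groups thus overlapped in both treatments.

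PRELP, which anchors basement membranes to the tissue around them, ran from 2.05 over a median of 4.26 to 8.66 CPM in CONHC and from 2.85 over 7.93 to 16.4 CPM in CONLC. Its level ran from 1.57 over 4.12 to 6.70 CPM in GLYHC and from 4.52 over 6.18 to 12.6 CPM in GLYLC. In both treatments 7 of the 8 HC cows lay below the median of the LC group. The estimates were of like size, at -0.79 ± 0.32 in the CON cows (adjusted p = 0.755) and -0.72 ± 0.32 in the GLY cows (adjusted p = 0.355).

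OGN, known from bone and from vessel walls, had the estimate nearest 0 over all cows after BGN. The ranges were 2.68 over a median of 3.45 to 6.05 CPM in CONHC, 0.930 over 3.43 to 12.7 CPM in CONLC, 1.21 over 2.85 to 5.02 CPM in GLYHC and 1.49 over 3.18 to 6.74 CPM in GLYLC. All 4 medians lay within the range of every group. The log2 fold changes were -0.36 ± 0.38 in the CON cows and -0.27 ± 0.39 in the GLY cows, each within 1 SE of 0, and the former was 0.01 without CONLC 166, the cow with 12.7 CPM.

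**Figure D3:**
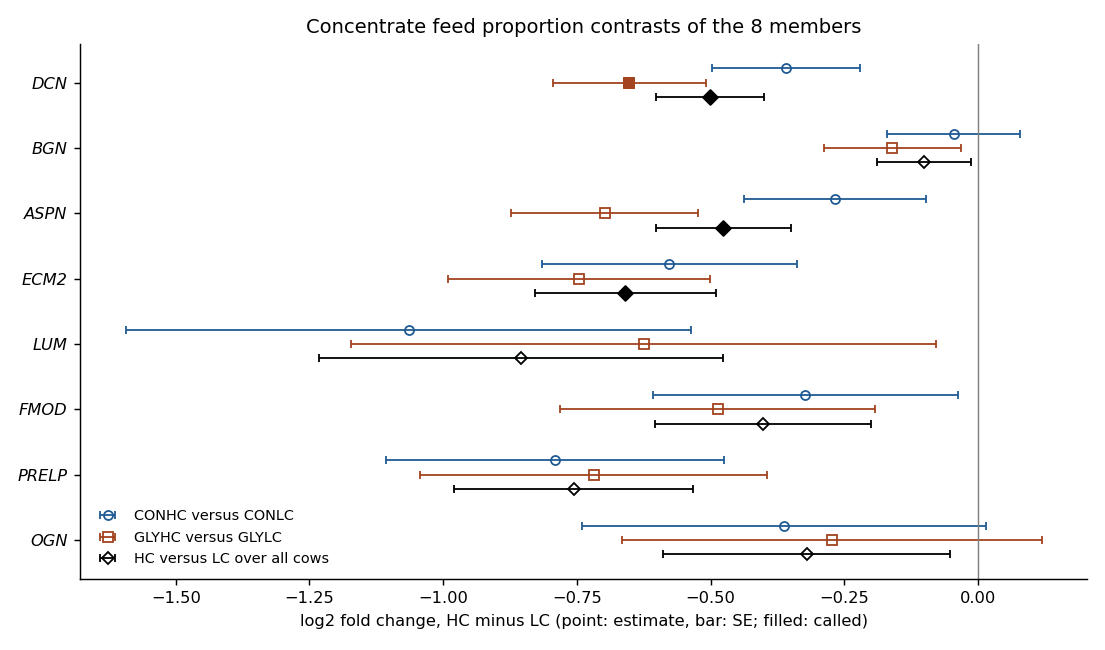
Log2 fold change of each SLRP gene (y axis) for high against low concentrate feeding (x axis, HC minus LC) in the CON cows (circles), in the GLY cows (squares) and over all cows with treatment as a covariate (diamonds), with bars for the SE and filled symbols for called genes. All 24 estimates lie below 0, from -1.06 for LUM in the CON cows to -0.05 for BGN in the CON cows, and the filled symbols are DCN in the GLY cows and DCN, ASPN and ECM2 over all cows.

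All 8 SLRP estimates were below 0 in the CON cows, as were 53.6% of all genes, and in the GLY cows, as were 51.4%, and 31.5% of all genes lay below 0 in both. The median of the 8 was -0.36 in the CON cows and -0.64 in the GLY cows, against a median over all genes of -0.01 in each. Whether the feed contrast depended on glyphosate was tested by the interaction, and 0 SLRP genes and 0% of all genes were called. The smallest unadjusted p of the interaction belonged to ASPN, at -0.43 ± 0.24 (unadjusted p = 0.0871), followed by DCN at -0.29 ± 0.20 (unadjusted p = 0.151), with an adjusted p of 0.999 for both. At an unadjusted p under 0.05 the interaction held 0 SLRP genes and 4.21% of all genes.

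Any difference among the 4 groups, tested on 3 degrees of freedom, was called for DCN (adjusted p = 0.0306) and for 0.773% of all genes (123 genes). At an unadjusted p under 0.05 it held 5 SLRP genes and 9.39% of all genes. ASPN followed with an adjusted p of 0.164. The DCN call held in each of the 31 fits that left out 1 cow, and in the fit without GLYLC 912, where 0.0889% of all genes were called. It did not hold in the fit without the 3 cows with the highest smooth muscle scores (GLYLC 912, CONLC 103 and CONLC 166), in which 0.0192% of all genes were called.

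No SLRP gene was called for glyphosate. Between GLYHC and CONHC, 0% of all genes were called and the 8 estimates, all below 0 as 48.3% of all genes were, ran from -0.43 for LUM to -0.12 for BGN. Without CONHC 41 LUM stood at 0.0070. DCN had a log2 fold change of -0.33 ± 0.14 with an unadjusted p of 0.0219, alone among the 8 against 2.92% of all genes under 0.05. The means were 63.3 ± 9.21 CPM in GLYHC and 79.8 ± 10.7 CPM in CONHC (SD, n = 8 each), and the GLYHC cows of this contrast are those of the contrast of GLYHC with GLYLC. Between GLYLC and CONLC, where 0.0628% of all genes were called, the DCN means were 99.5 ± 18.4 CPM (SD, n = 7) and 102 ± 27.3 CPM (SD, n = 8), a log2 difference of -0.04 with a 95% interval from -0.32 to 0.24. LUM stood at -0.87 ± 0.54 in that contrast with all cows and at -0.15 without CONLC 103, and 0 SLRP genes against 5.65% of all genes had an unadjusted p under 0.05. Of the 8 estimates 6 were below 0 with all cows and 3 without CONLC 103, and 50.6% of all genes were below 0. Over all cows, GLY against CON gave 0 called genes and 0 SLRP genes with an unadjusted p under 0.05, against 3.92% of all genes, and DCN stood at -0.19 ± 0.10. All 8 estimates were below 0 there, and 7 without CONLC 103, as were 48.5% of all genes.

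The cow with the most smooth muscle RNA did not rank first for any SLRP gene. Among the 31 cows GLYLC 912 ranked 14 for DCN (84.7 CPM), 30 for BGN (76.6 CPM), 20 for ASPN (43.9 CPM), 14 for ECM2 (8.62 CPM) and 17 for OGN (3.18 CPM). It ranked higher for LUM (5, at 6.57 CPM), FMOD (5, at 15.7 CPM) and PRELP (9, at 6.94 CPM). Its smooth muscle genes were far above those of any other cow, with 353 CPM of ACTG2, the enteric smooth muscle actin, against at most 2.01 CPM elsewhere. The summed level of the 12 smooth muscle genes found was 2642 CPM in this cow, and the other cows ran from 238 CPM in CONLC 260 to 1246 CPM in CONLC 166.

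Leaving out GLYLC 912 kept DCN (adjusted p = 0.0344), ASPN (adjusted p = 0.0875) and ECM2 (adjusted p = 0.0833) called in HC against LC over all cows, beside 0.863% of all genes. DCN stood at -0.51, ASPN at -0.50 and ECM2 at -0.68 in that fit, each farther from 0 than with all cows. No SLRP gene was called between CONHC and CONLC in that fit, where 0.0444% of all genes were. The smooth muscle genes themselves were lower in HC against LC, by far less without this cow. Over all cows 3 of 12 were called lower (TAGLN, CNN1 and ACTG2) with a median of -0.97, against 1 of 12 and a median of -0.46 without it. In the contrast of GLYHC with GLYLC, 4 of 12 (MYH11, TAGLN, CNN1 and ACTG2) were called lower with all cows, beside 0.201% of all genes, and 0 of 12 without it, where no gene of any kind was called. The cow was picked out by these genes, so the counts are a description. The part of smooth muscle in the SLRP differences was not tested beyond these fits.

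Leaving out GLYLC 912, CONLC 103 and CONLC 166 together, an alternative chosen after the data had been seen, left only DCN called among the 8 over all cows (-0.44, adjusted p = 0.0700), beside 0.601% of all genes. ASPN then stood at -0.45 (adjusted p = 0.157) and ECM2 at -0.52 (adjusted p = 0.171). The median of the 8 estimates over all cows moved from -0.49 to -0.34. In the CON cows, where both CONLC cows had been removed, FMOD turned to 0.29 and OGN to 0.12. There DCN stood at -0.20 in place of -0.36, ASPN at -0.14 in place of -0.27 and ECM2 at -0.25 in place of -0.58. In the GLY cows DCN stood at -0.68 in place of -0.65 and was not called.

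**Figure D4:**
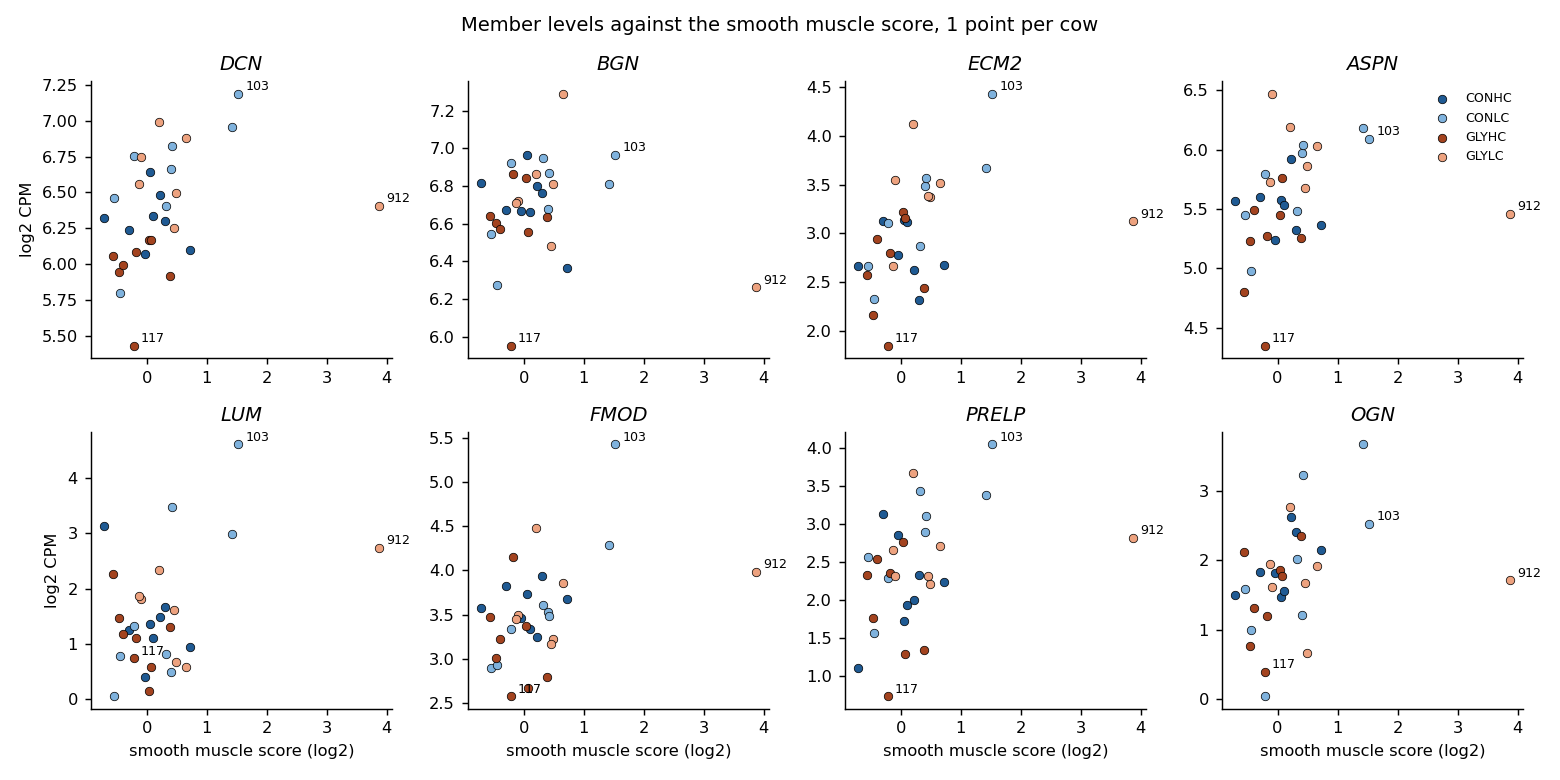
Level of each SLRP gene (y axes, log2 CPM) against the smooth muscle score of the same cow (x axis, mean log2 CPM of 12 smooth muscle genes centred on the median cow), with 1 point per cow coloured by feeding group. GLYLC 912 has the highest score at 3.87 and lies within the range of the other cows for each gene, while CONLC 103, at 1.52, is the highest cow for DCN, ECM2, LUM, FMOD and PRELP.

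CONLC 103 was the cow with the highest SLRP levels. It ranked 1 of 31 for 5 of the 8 genes, with 146 CPM of DCN, 21.5 CPM of ECM2, 24.2 CPM of LUM, 43.1 CPM of FMOD and 16.4 CPM of PRELP, and was among the highest 5 cows for all 8. It also held the most fibrillar collagen RNA, with 434 CPM of COL1A1, 521 CPM of COL1A2 and 1008 CPM of COL3A1, while no other cow exceeded 42.4, 66.1 and 198 CPM, respectively. Its portal fibroblast score was the highest of the 31 cows (1.95). The part of this cow's cell makeup in its SLRP levels was not tested.

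Without CONLC 103, ASPN and ECM2 lost their call over all cows (adjusted p = 0.117 for each) and DCN kept it (-0.46, adjusted p = 0.0420), beside 0.793% of all genes. DCN was then also called between GLYHC and GLYLC (adjusted p = 0.0625), beside 0.0693% of all genes. In the CON cows 7 of the 8 estimates stayed below 0 and none of the 8 had an unadjusted p under 0.05.

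At the other end, GLYHC 117 had the lowest level of the 31 cows for 6 of the 8 genes. Its levels were 43.1 CPM for DCN, 61.9 CPM for BGN, 20.3 CPM for ASPN, 3.50 CPM for ECM2, 5.86 CPM for FMOD and 1.57 CPM for PRELP. It ranked 30 for OGN and 24 for LUM. The same cow had the lowest hepatic stellate cell score (-0.69) and the lowest collagen score (-0.62) of the 31. Without it DCN between GLYHC and GLYLC stood at -0.59 and was not called (adjusted p = 0.131).

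The SLRP genes varied together between cows of the same group, to unequal degrees. After the group means had been subtracted from log2 CPM, Pearson's r over the 31 cows ran from 0.13 (BGN with LUM) to 0.81 (DCN with ASPN) over the 28 pairs, with a median of 0.48. DCN also went with ECM2 (r = 0.78, Spearman's rho = 0.72) and with BGN (r = 0.76, rho = 0.71), and ASPN with its neighbour ECM2 (r = 0.74, rho = 0.73). The neighbours FMOD and PRELP had r = 0.72 and rho = 0.76, whereas the neighbours LUM and DCN had r = 0.45 and rho = 0.33. These correlations share libraries, depth and normalisation, and are given as a description without a test. Without the 2 cows farthest from the median of DCN, its r with ASPN was 0.70, with ECM2 0.69 and with BGN 0.64. Without the 2 cows farthest from the median of BGN, its r with ASPN was 0.38 in place of 0.62. Its r with ECM2 was then 0.32 in place of 0.52.

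The genes most like each member, among 11834 genes with a mean of at least 1 CPM, were named by the highest r. For DCN these were SGCE (sarcoglycan epsilon, r = 0.89), IGFBP7 (0.82) and ASPN (0.81), and for ASPN they were DCN, SGCE (0.81) and POSTN (periostin, a matrix protein, 0.77). For BGN they were EDNRB (the endothelin B receptor, 0.78), GDF2 (BMP9, 0.77) and PDGFRB (the platelet-derived growth factor receptor of mesenchymal cells, 0.76). For ECM2 they were ENPP6 (0.78), DCN and SPARCL1 (a matrix protein, 0.77). LUM was most like FBLN1 (fibulin 1, 0.82), COL16A1 (0.81) and MMP2 (a gelatinase, 0.78), and FMOD most like COL5A2 (0.84), COL5A1 (0.84) and LTBP3 (a latent TGF-beta binding protein, 0.82). PRELP was most like TBC1D16 (0.77), NR3C2 (the mineralocorticoid receptor, 0.76) and FRMD4A (0.75), and OGN most like TIMP2 (a metalloproteinase inhibitor, 0.70), SVIL and UCHL1 (0.67 each).

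The lists of the nearest genes changed in part without GLYLC 912. SGCE stayed the nearest gene to DCN (r = 0.88 over 30 cows), DCN the nearest to ASPN (0.81), COL5A2 the nearest to FMOD (0.84) and TBC1D16 the nearest to PRELP (0.76). The nearest gene became TENM3 for BGN (0.79), SPARCL1 for ECM2 (0.85), MMP2 for LUM (0.81) and CAVIN1 for OGN (0.75). OGN therefore kept only UCHL1 (0.73) of its first list.

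The SLRP genes also varied with scores of cell type markers. The hepatic stellate cell score (mean of 10 genes, such as LRAT, RELN and PDGFRB) went with DCN (r = 0.77, rho = 0.66), ECM2 (0.72, 0.67), BGN (0.66, 0.56), FMOD (0.65, 0.65) and ASPN (0.61, 0.53), and less with PRELP (0.48, 0.41), LUM (0.46, 0.36) and OGN (0.27, 0.16). The portal fibroblast score (mean of 10 genes, such as THY1, FBLN1 and ELN) went with FMOD (r = 0.74, rho = 0.62) and LUM (0.73, 0.73), and less with ASPN (0.19, 0.13) and BGN (0.15, 0.29). Among the other scores, that of mesothelium went with OGN (0.60, 0.53) and FMOD (0.54, 0.46), that of bile duct with LUM (0.59, 0.66) and that of endothelium with FMOD (0.54, 0.52). The smooth muscle score ran from r = -0.16 with BGN to 0.40 with FMOD over all cows. Without GLYLC 912 it was positive with each of the 8 genes, from 0.24 with BGN to 0.55 with OGN, and r with DCN was 0.44 in place of 0.15. Spearman's rho in those 30 cows ran from 0.08 with LUM to 0.49 with OGN, and was 0.33 with DCN. When the 2 of the 30 cows farthest from the median of the score were also left out, r weakened. It then ran from -0.06 with LUM to 0.42 with OGN, and was 0.24 with DCN. Of all 31 cows without the 2 farthest from the median of the score, r with the stellate cell score was 0.65 for DCN and 0.49 for BGN, and r with the portal fibroblast score was 0.60 for both FMOD and LUM.

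**Figure D5:**
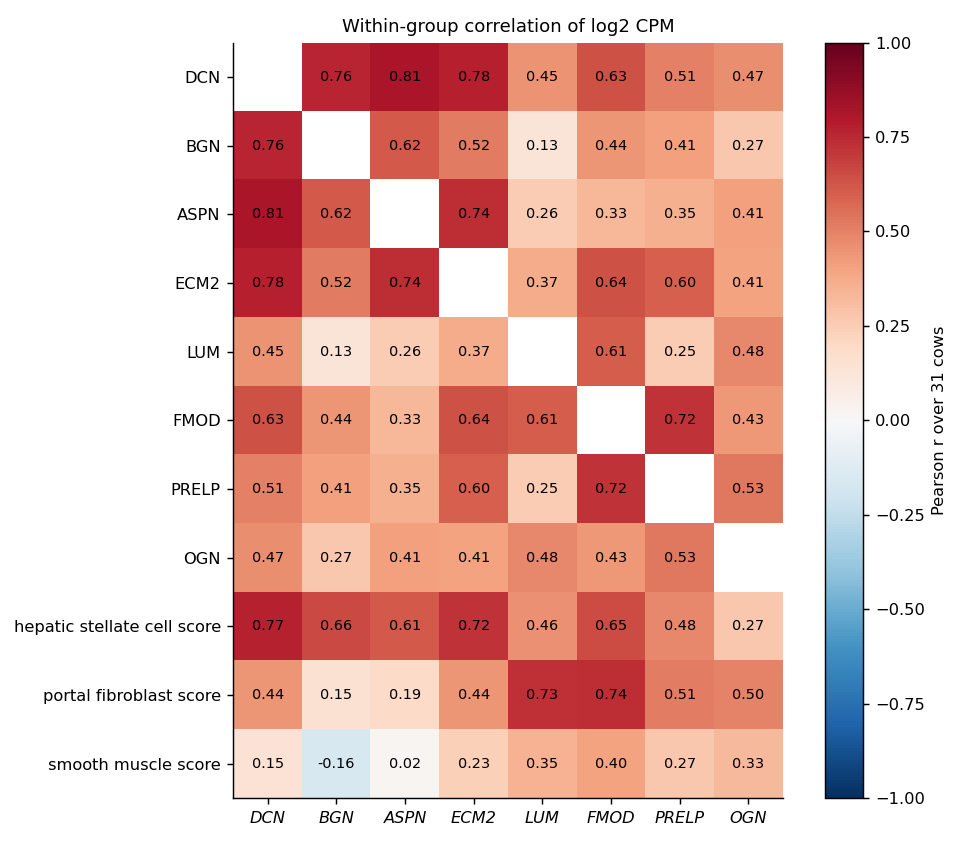
Pearson's r of log2 CPM over 31 cows after subtraction of the group means, between the 8 SLRP genes (columns) and the same genes and 3 marker scores (rows), on a colour scale from -1 to 1 with each value printed. DCN, ASPN, ECM2 and BGN have r from 0.52 to 0.81 with each other, and LUM and FMOD have the highest r with the portal fibroblast score, at 0.73 and 0.74. FMOD has r of 0.64 with ECM2 and 0.63 with DCN.

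No gene of the stellate cell and portal fibroblast lists was called between the feed groups. Over all cows 9 of 10 stellate cell genes were below 0 in HC against LC, with a median of -0.22, and 10 of 10 portal fibroblast genes, with a median of -0.60. An unadjusted p under 0.05 was found for 4 stellate cell genes and 3 portal fibroblast genes, against 13.7% of all genes. Without GLYLC 912, CONLC 103 and CONLC 166 the medians were -0.16 and -0.12. The median stellate cell score was -0.057 in CONHC and 0.095 in CONLC, and -0.203 in GLYHC and 0.210 in GLYLC. Its ranges overlapped between the feed groups in both treatments. The median portal fibroblast score was 0.021 in CONHC and -0.023 in CONLC, and -0.085 in GLYHC and -0.087 in GLYLC, while the highest scores were those of CONLC 103 (1.95), CONLC 166 (1.64) and GLYLC 544 (1.57). The summed level of the 10 stellate cell genes was 245 to 400 CPM in CONHC, 234 to 373 CPM in CONLC, 221 to 337 CPM in GLYHC and 252 to 431 CPM in GLYLC. The portal fibroblast genes summed to 9.53 to 23.8 CPM in CONHC, 7.64 to 63.1 CPM in CONLC, 8.19 to 16.5 CPM in GLYHC and 10.1 to 43.9 CPM in GLYLC. Every gene of both lists was above 0 reads in the median cow, and the part of these cells in the SLRP differences was not tested.

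Other cell types were represented by short lists. In HC against LC over all cows, 0 of 10 hepatocyte genes (median 0.09), 0 of 7 mesothelial genes (-0.35), 0 of 5 bile duct genes (0.01), 0 of 6 endothelial genes (-0.04), 0 of 5 adipocyte genes (-0.78) and 0 of 8 skeletal muscle genes (0.09) were called. CALB2 and BNC1 of the mesothelial list and LEP of the adipocyte list had 0 reads in the median cow. KRT14 and KRT1, keratins of epidermis, were called higher among 4 epidermal genes, with a summed level of at most 8.96 CPM in any cow. Both had 0 reads in the median cow. The mean epidermis score was 1.09 in GLYHC, against 0.074 in CONHC, 0.035 in CONLC and 0.079 in GLYLC. Its highest values were those of GLYHC 154 (2.97), GLYHC 32 (2.64) and GLYHC 117 (2.29). FABP2, MUC13 and OLFM4 were called lower among 4 intestinal genes, whose summed level was 272 CPM in GLYLC 912 and at most 1.74 CPM in any cow of the other 3 groups. The highest adipocyte sum of each group was that of GLYLC 544 (91.1 CPM), CONLC 166 (57.8 CPM), CONHC 7 (25.1 CPM) and GLYHC 127 (10.4 CPM). Their DCN levels were 127, 124, 75.2 and 60.5 CPM, respectively. GLYLC 544 and CONLC 166 thus lay above the DCN median of their group, and CONHC 7 and GLYHC 127 below it. The median adipocyte score was -0.349 in CONHC and -0.415 in CONLC, and -0.917 in GLYHC and 0.339 in GLYLC. It ranged from -1.64 to 0.910 in GLYHC and from -0.102 to 3.80 in GLYLC. The median adipocyte sum was 3.81 CPM in GLYHC and 7.10 CPM in GLYLC. The part of adipocytes in the DCN levels was not tested.

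The collagens that SLRPs bind lay below 0 as a list. Over all cows 11 of 11 collagen genes were below 0 in HC against LC, as were 54% of all genes, with a median of -0.56. An unadjusted p under 0.05 was found for 10 of 11, against 13.7% of all genes, but 0 were called. COL1A2 stood at -1.92 (adjusted p = 0.124) and COL3A1 at -0.86 (adjusted p = 0.208). COL1A1 and COL1A2, the chains of type I collagen, were called in the test of any difference among the 4 groups, as were 0.773% of all genes. Much of the size came from CONLC 103, without which the median was -0.28 and 6 of 11 had an unadjusted p under 0.05. Without CONLC 103, CONLC 166 and GLYLC 912 the median was -0.17, and 4 of 11 lay below 0 in the CON cows.

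The enzymes that build the chains of SLRPs showed no such shift. Of 25 glycosaminoglycan enzyme genes 23 could be tested, 0 were called in HC against LC, and their median was -0.02. B4GALT1, a galactosyltransferase with the highest mean of the list (75.6 CPM), stood at -0.02 and B3GAT3, which completes the linker of the chain (20.2 CPM), at -0.01. B4GALT7, which adds the first galactose of the linker, was the only member with an unadjusted p under 0.05, at -0.22 (adjusted p = 0.169). Among 18 binding partners and receptors 0 were called, with a median of -0.07. CD14 (219 CPM, -0.18), KDR (98.0 CPM, -0.07), TGFBR2 (61.0 CPM, 0.03) and MET (55.8 CPM, 0.08) had the highest means of that list.

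Among 19 tested genes for cross-linking and cleaving enzymes 0 were called, with a median of -0.18. BMP1, which trims the propeptides of SLRPs and collagens, had the highest mean of the list (50.6 CPM) and stood at -0.11 (adjusted p = 0.613). MMP19 (27.9 CPM) had the opposite sign to the SLRP genes, at 0.64 (adjusted p = 0.103).

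The other 9 SLRP genes contributed little. OMD and KERA, the neighbours of OGN and ASPN and of LUM, had 0 to 7 and 0 to 24 reads per cow, and EPYC, OPTC, CHAD, NYX, PODN and PODNL1 had at most 26. TSKU (tsukushi), the exception, had 3072 to 33565 reads per cow and a mean of 504 CPM. It stood at -0.09 in HC against LC over all cows (adjusted p = 0.920), and GLYLC 912 held 112 CPM of it. None of the 8 of these genes that could be tested was called in either feed contrast or over all cows.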

How the data were processed

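Gene expression was measured by stranded mRNA sequencing of liver biopsies from 31 cows, 1 library per cow. After trimming (Trim Galore), the authors mapped reads to the UMD3.1 genome using HISAT2 2.1.0, and uniquely mapped reads were assigned to Ensembl genes using HTSeq 0.8.0. The deposited values used here are these raw counts. Whether HTSeq used strand is not given in the sources used here, so reads of overlapping genes could be shared. A table normalised by the authors was not used.

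Groups were taken from the labels, and the replicates were separate cows. Genes with at least 20 reads summed over the cows were tested, which kept 15916 of 24616. Total counts ran from 11675775 to 36675542 per cow. Counts were fitted with edgeR 4.0.16 in R 4.3.3 (TMM factors, quasi-likelihood F test, 1 fit over the 4 groups; a second fit of feed and treatment without their interaction for the comparisons over all cows). A gene was called if p was below 0.05 and its Benjamini-Hochberg value over all genes tested below 0.1. The SE was obtained as the absolute log2 fold change over the root of F, and 95% intervals are normal. Correlations used log2 CPM with a prior count of 2, and the DCN to BGN ratio added 0.5 reads to each count. The fits were tested on simulated counts. Figures were drawn with matplotlib 3.10.9 in Python 3.11.15.

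The members and lists were chosen with earlier results of these data known. The text names all members, the other SLRP genes, list genes that were called, otherwise up to 4 genes of a list by mean CPM, and the 3 genes most correlated with each member. Alternatives were RLE or upper-quartile factors, other filters, a robust fit, DESeq2 1.42.0, fits of only the compared groups, and cows left out. The result of 1 further marker list is not reported here.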

Additional observations from a re-analysis of the deposited data

Results flagged for a closer look

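In 10 of the 32 sets of 1 SLRP gene in 1 feeding group, 1 cow stood apart from the rest by Dixon's test at the 95% level, which chance gives in about 1 of 20 groups. The sets are not independent, since the same cows recur. CONLC 103 was the highest cow of its group for ECM2 (21.5 CPM, next 12.6), LUM (24.2 CPM, next 11.1) and FMOD (43.1 CPM, next 19.5). GLYHC 117 was the lowest cow of its group for DCN (43.1 CPM, next 60.5) and BGN (61.9 CPM, next 94.0). The other cows stood high for 1 gene each. These were CONHC 208 for ASPN (60.5 CPM, next 48.4), CONHC 41 for LUM (8.70 CPM, next 3.08), GLYHC 131 for LUM (4.73 CPM, next 2.67), GLYHC 32 for FMOD (17.7 CPM, next 11.0) and GLYLC 544 for PRELP (12.6 CPM, next 6.94). GLYLC 912, the cow with the highest smooth muscle score, did not stand apart in its group for any of the 8 genes by this test.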

How the results depend on the processing

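In the contrasts where an SLRP gene was called, its estimate kept its sign under every alternative run. Estimates near 0 turned elsewhere, such as DCN between GLYLC and CONLC (0.05 without CONLC 103, against -0.04). Between GLYHC and GLYLC, where 1 SLRP gene was called, 0 were called at an adjusted p under 0.05, with the robust fit, with edgeR on only both compared groups, without GLYLC 912 and without the 3 cows with the highest smooth muscle scores. In the same contrast 2 (DCN and ASPN) were called with RLE factors, with DESeq2 on all cows and with DESeq2 on only both compared groups, and 0 to 2 when each cow was left out in turn. Over all cows, where 3 were called in HC against LC, 1 was called at an adjusted p under 0.05 and without those 3 cows, and 1 to 4 with each cow left out. PRELP was called there with DESeq2 (adjusted p = 0.0447). In the test of any difference, where 1 was called, 2 were called with DESeq2 and 0 without the 3 cows, and 1 to 2 with each cow left out. The cause of these changes was not tested.

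Counts over all genes moved more. Beside 32 genes between GLYHC and GLYLC the alternatives called 0 to 143 and the fits without 1 cow 0 to 150. Beside 231 genes over all cows they called 55 to 434 and 83 to 404, and beside 123 genes for any difference 3 to 169 and 14 to 178. Between CONHC and CONLC, with 0 genes, they called up to 81 and up to 7, between GLYLC and CONLC, with 10, they called 0 to 10 and 0 to 41, and between GLYHC and CONHC, with 0, up to 5 and up to 1. DESeq2 called 1 gene for the interaction and 1 for GLY against CON, and edgeR 0 for each, with up to 6 for GLY against CON when a cow was left out.

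No paired analysis was possible because the replicate numbers are animal numbers and no group shares one. LUM, PRELP and OGN rest on as few as 12, 22 and 17 reads in a cow, and intervals around single counts cover counting error only.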
